A study of Homo sapiens with 9 samples.

Results

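The genes described here are a list of 31 transcriptional targets of the tumour suppressor p53, chosen by name and looked up by Ensembl identifier in a count table of 23727 genes. The table held 30 of them; SPATA18 was not analysed here. RNA was sequenced from 9 libraries of LN229, a long-established line of human glioblastoma cells, cultured with 10% fetal bovine serum and with glucose at 17 mM and glutamine at 2 mM. The 3 untreated libraries were taken at 0 h, and 3 libraries each followed 8 h and 24 h with 500 µM sodium formate, the salt of a 1-carbon unit that folate metabolism makes and uses. All groups share this single line, which is catalogued with loss of CDKN2A. No untreated cells were kept for 8 or 24 h, so formate and time in culture cannot be told apart. The labels number the replicates but do not say whether they were separate cultures, so the p-values measure the spread between these libraries, which may be technical.

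p53 is a transcription factor that is kept low by MDM2, an E3 ubiquitin ligase and itself a p53 target, and that accumulates after DNA damage, nucleolar stress or shortage of nucleotides. It binds a pair of 10-base half-sites and activates genes that halt the cell cycle, repair DNA, alter metabolism or start apoptosis, together with genes that switch p53 off again. Which of these classes responds differs between cell types and stimuli, and in glioblastoma gain of MDM2 or MDM4 is a common way of blocking the pathway.

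Matches to the consensus of the p53 half-sites are shown for members that have one near the start of transcription. RefSeq windows of 300 bases (250 before to 50 after a start, GRCh38.p14) were held for 25 of the 31 symbols. Both strands were searched for the p53 half-site consensus, as 2 half-sites up to 13 bases apart with the central C and G of each intact. A pair with at most 2 mismatches was found in 5 of these 25 symbols (20%) and in 989 of all 27305 symbols (3.62%). These were AEN, DDB2, FAS, FDXR and MDM2, and PLK2, PMAIP1, RPS27L, SESN1 and ZMAT3 had a pair with 3 mismatches. Capitals mark the half-sites and small letters the bases between them, each written 5′ to 3′ on the strand of its gene.
DDB2, chr11:47214979-47214999, plus strand, 0 mismatches: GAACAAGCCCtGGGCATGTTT
MDM2, chr12:68808923-68808942, plus strand, 2 mismatches: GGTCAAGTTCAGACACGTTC
FAS, chr10:88991309-88991328, plus strand, 2 mismatches: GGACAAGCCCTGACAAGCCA
AEN, chr15:88621306-88621325, plus strand, 2 mismatches: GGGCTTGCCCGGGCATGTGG
FDXR, chr17:74872996-74873025, minus strand, 2 mismatches: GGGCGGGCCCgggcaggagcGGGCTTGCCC
PLK2, chr5:58460196-58460218, minus strand, 3 mismatches: AGACTTGCTTcccGGCCACGCGC
PMAIP1, chr18:59899811-59899830, plus strand, 3 mismatches: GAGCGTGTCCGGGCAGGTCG
RPS27L, chr15:63157527-63157546, minus strand, 3 mismatches: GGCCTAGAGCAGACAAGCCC
SESN1, chr6:109009018-109009037, minus strand, 3 mismatches: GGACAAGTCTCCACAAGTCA
ZMAT3, chr3:179071867-179071892, minus strand, 3 mismatches: GGGCCTGCTCcgccaaGCACATGCGC
A pair with up to 3 mismatches stood in 12.8% of all 35116 windows searched and in 30.6% of the 36 windows of the list. A match is a description of letters in the window and was not tested as a binding site. The windows of CDKN1A, CCNG1 and PPM1D held no pair within 3 mismatches, which speaks only of these letters in these windows.

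Levels below are CPM, a gene's counts relative to the TMM-adjusted total of its library, and differences are log2 fold changes with their standard error (SE) from edgeR. Every test was edgeR's two-sided quasi-likelihood test, with p-values adjusted by Benjamini-Hochberg over the 15273 genes that passed the filter on low counts, and a threshold of 0.05. All 30 members passed that filter, with 28 to 9367 counts in a library. Libraries held 22222298 to 25848242 counts. Same-numbered libraries at 0 h and 8 h deviated together. At 0 h and 24 h the pairing was less clear. Same-numbered libraries there correlated at 0.367, 0.164 and 0.251, but untreated replicate 3 and 24 h replicate 2 at 0.27. For these 2 comparisons a second fit, which takes the replicate number as a block, is given where it changes a call. At 24 h against 8 h the block is given as a count. The glioma markers VIM, CD44, NES, SOX2, S100B and OLIG2 were present in every library, at 3199 to 6284 CPM for VIM. Some of these markers also differed at 24 h against 0 h: S100B was 2.61-fold higher (adjusted p = 0.046), and with the block VIM (-0.45 on the log2 scale, adjusted p = 0.00858) and CD44 (-0.37, adjusted p = 0.0069) were lower and OLIG2 (0.53, adjusted p = 0.0303) was higher. Their part in the results below was not tested. GFAP, the astrocyte filament gene, had at most 10 counts in a library, and SOX9 at most 1.17 CPM. Of the markers of other cell types, PTPRC (leukocyte), EPCAM (epithelial) and PECAM1 (endothelial) had at most 3 counts, MBP (oligodendrocyte) had at most 19, and KRT8, a simple-epithelium keratin, stood at 13.5 to 23.0 CPM. CDKN2A had at most 1 count in a library.

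CDKN1A, the cyclin-dependent kinase inhibitor p21, was 1.75-fold higher after 24 h with formate than at 0 h, and ZMAT3, a zinc-finger RNA-binding protein that controls splicing, was 1.52-fold higher. In these bulk libraries a different level in every cell and a different share of cells with the RNA cannot be told apart. CDKN1A and ZMAT3 were the 2 of 30 members that passed the test, against 4.25% of all genes (2.47% higher and 1.77% lower). With the replicate block, 8 members were called higher, against 12.6% of all genes, and 3 were called lower, a share of the members below the 11.6% of all genes; in either direction 24.1% of all genes were called. The 8 higher members were TP53INP1, CDKN1A, ZMAT3, SESN1, CCNG1, CMBL, PHLDA3 and PPM1D, and the 3 lower ones were PMAIP1, AEN and SERTAD1. The median log2 fold change of the members was 0.22, against 0.01 over all genes, and it was 0.10 without 24 h replicate 1, 0.13 without 24 h replicate 3 and 0.12 without all libraries numbered 1. Of the 30 members 18 had a positive and 12 a negative log2 fold change, from -0.39 (AEN) to 1.29 (TP53INP1).

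The 24 h libraries all lay above the untreated ones in 11 members, against 15.9% of all genes, and all below them in 2 members (PMAIP1 and FAS), against 14.4%. Within the same replicate number, 13 members were higher at 24 h in all 3 pairs, against 27.3% of all genes, and 7 were lower in all 3, against 26.8%. The count of calls depended on single libraries and on the tool. Without 24 h replicate 2, and likewise without 24 h replicate 3, no gene of the table passed, and no member passed when the 2 groups were fitted alone. In contrast, DESeq2 called 7, against 11.8% of the genes for which it gave an adjusted p, and edgeR called 8 after all libraries numbered 1 were left out, against 16.9%.

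**Figure D1:**
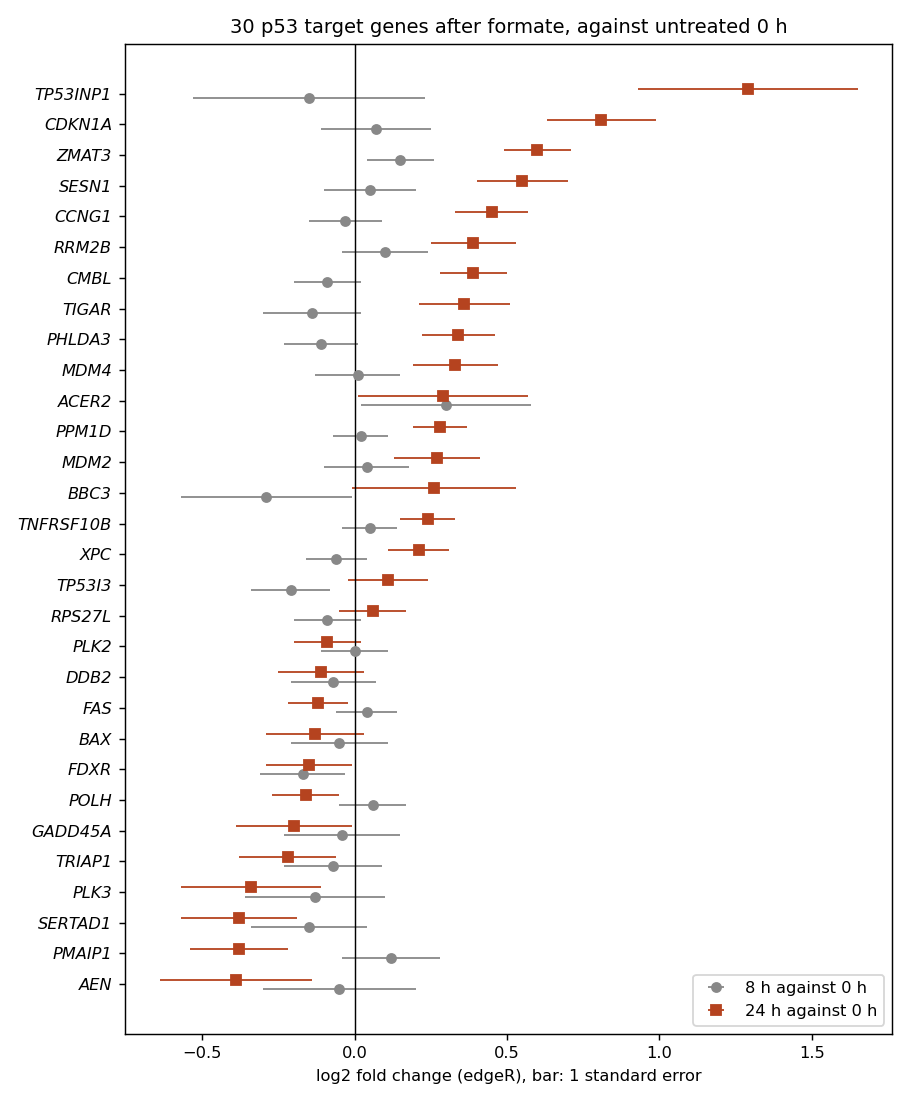
Log2 fold change of the 30 p53 targets (vertical axis, ordered by the 24 h value) at 8 h (grey circles) and 24 h (orange squares) of formate against untreated cells at 0 h, from edgeR over 9 libraries; bars are 1 standard error. At 8 h the values lie between -0.29 and 0.30, and at 24 h between -0.39 for AEN and 1.29 for TP53INP1, with 18 members above 0 and 12 below.

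At 8 h none of the 30 members passed the test, with or without the block, and neither did any other gene (0% of all genes in both fits). None of the members had an unadjusted p under 0.05 at 8 h, against 79 of the 15273 genes, and neither DESeq2 nor limma-voom called any gene. Their median log2 fold change was -0.04, against -0.02 over all genes. ZMAT3 was the member whose 8 h libraries all lay above the untreated ones, against 1.43% of all genes, and none lay wholly below them, against 1.89%. Its log2 fold change at 8 h was 0.15 (SE 0.11) with an adjusted p of 1.

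Among the genes of cell-cycle arrest, CDKN1A (ENSG00000124762, chromosome 6, 36676460 to 36687339, plus strand) read 108, 90.3 and 80.4 CPM in untreated replicates 1, 2 and 3. It read 104, 98.7 and 89.7 CPM at 8 h and 220, 134 and 135 CPM at 24 h. Every 24 h library lay above every earlier one, and 24 h replicate 1 stood far above the other two. The log2 fold change of CDKN1A at 24 h against 0 h was 0.81 (SE 0.18, adjusted p = 0.0358), and 0.79 (SE 0.11, adjusted p = 0.000807) with the block. Without 24 h replicate 1 it was 0.53 and still passed. The call was lost without either of the other 24 h libraries, without untreated replicate 2 or 3, and without 8 h replicate 2 or 3. A noncoding RNA of the opposite strand, DINOL, overlaps 4.79% of the exons of CDKN1A, and the strand setting of the counts is not given in the sources used here.

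CCNG1, which encodes cyclin G1, a regulatory partner of protein phosphatase 2A, read 153, 190 and 166 CPM at 0 h and 141, 186 and 172 CPM at 8 h. At 24 h it read 221, 227 and 247 CPM, above every earlier library. Its log2 fold change was 0.45 (SE 0.12) at 24 h, with an adjusted p of 0.0613 without and 0.00469 with the block. A processed pseudogene, CCNG1P1, could share reads with it. SERTAD1, a cofactor of CDK4 and E2F, was grouped with the arrest genes, and the grouping does not say that it halts the cycle. It differed the other way, with 26.7, 17.7 and 17.4 CPM at 0 h, 21.3, 18.6 and 15.6 CPM at 8 h and 19.2, 13.7 and 14.5 CPM at 24 h. The groups overlapped because replicate 1 was the highest library in each of them, but the 24 h library was lower in all 3 pairs. For SERTAD1 the log2 fold change was -0.38 (SE 0.19, adjusted p = 0.233), and -0.37 (SE 0.10, adjusted p = 0.0263) with the block.

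The remaining arrest genes did not pass in either fit. PLK3, a stress-responsive polo-like kinase, read 9.81, 4.93 and 6.68 CPM at 0 h, 7.67, 5.60 and 6.17 CPM at 8 h and 6.26, 5.18 and 5.47 CPM at 24 h. Its groups overlapped, and its log2 fold change of -0.34 (SE 0.23) had an adjusted p of 0.371. PLK2, a second polo-like kinase and the most abundant member, ranged from 301 to 369 CPM over the 9 libraries, and GADD45A, a stress sensor that binds CDK1 and PCNA, from 32.2 to 59.3 CPM. The median log2 fold change of the 6 genes grouped under arrest, SERTAD1 among them, was -0.14 at 24 h. Apart from CDKN1A and CCNG1, the arrest genes had log2 fold changes of -0.09 to -0.38.

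The 3 feedback genes, which limit p53, had log2 fold changes of 0.27 to 0.33 at 24 h, and none passed without the block. MDM2 (ENSG00000135679, chromosome 12, 68808176 to 68850686, plus strand), whose pair of half-sites is printed above, read 181, 194 and 188 CPM at 0 h, 194, 186 and 198 CPM at 8 h and 286, 211 and 181 CPM at 24 h. Replicate 1 was high at 24 h, replicate 3 was about at its untreated level, and the groups overlapped. The log2 fold change of MDM2 was 0.27 (SE 0.14, adjusted p = 0.253, and 0.168 with the block), and without 24 h replicate 1 it was 0.06. Genes of the opposite strand overlap 6.91% of the exons of MDM2.

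PPM1D, the phosphatase WIP1, which removes activating phosphates from p53 and its upstream kinases, read 30.9, 31.0 and 29.96 CPM at 0 h and 32.8, 29.8 and 30.5 CPM at 8 h. Its 24 h libraries read 38.3, 38.3 and 35.1 CPM, above all others. PPM1D had a log2 fold change of 0.28 (SE 0.09) with an adjusted p of 0.0893, and of 0.0297 with the block. MDM4, the relative of MDM2 that masks the activation domain of p53, read 40.8, 36.2 and 47.3 CPM at 0 h, 39.7, 37.3 and 48.0 CPM at 8 h and 45.3, 58.2 and 52.3 CPM at 24 h. Its groups overlapped although all 3 pairs were higher at 24 h, and its log2 fold change of 0.33 (SE 0.14) had an adjusted p of 0.163, and of 0.0538 with the block.

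**Figure D2:**
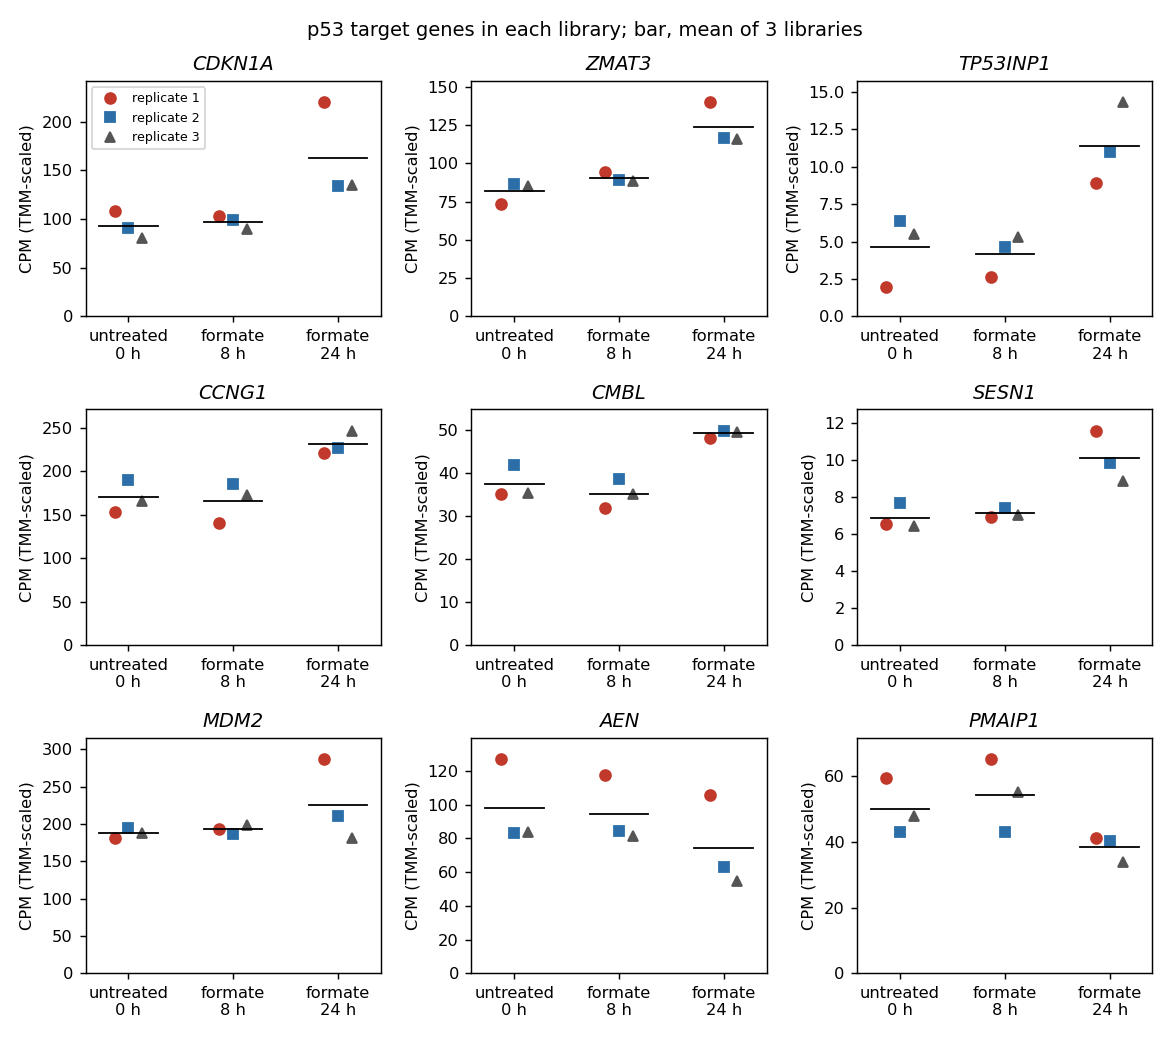
Level in CPM scaled with TMM factors (vertical axes, each starting at 0) of 9 p53 targets in untreated cells at 0 h and after 8 h and 24 h of formate; each point is 1 library, marked by its replicate number, and bars are the means of 3. CDKN1A, ZMAT3, TP53INP1, CCNG1, CMBL and SESN1 have every 24 h library above every earlier one, MDM2 is high at 24 h in replicate 1 (286 CPM), and AEN is higher in replicate 1 than in the other two at each time.

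The 10 measured genes grouped under apoptosis, among them TRIAP1, which restrains it, split by direction. They had 5 positive and 5 negative log2 fold changes at 24 h and a median of -0.01. TP53INP1, a nuclear protein that assists phosphorylation of p53 and autophagy, had the largest difference of the list. It read 1.98, 6.39 and 5.49 CPM at 0 h, 2.63, 4.64 and 5.32 CPM at 8 h and 8.92, 11.0 and 14.3 CPM at 24 h. Replicate 1 was the lowest library in each group, and every 24 h library lay above all earlier ones. TP53INP1 had a log2 fold change of 1.29 (SE 0.36), with an adjusted p of 0.0632 without and 0.000929 with the block. Without untreated replicate 1 it was 0.92.

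PHLDA3, a repressor of AKT signalling, read 113, 102 and 85.8 CPM at 0 h, 86.9, 102 and 89.2 CPM at 8 h and 128, 117 and 136 CPM at 24 h. Its 24 h libraries did not overlap with the earlier ones, and its log2 fold change of 0.34 (SE 0.12) had an adjusted p of 0.109, and of 0.0424 with the block. A gene on its own strand overlaps 19.1% of its exons. TNFRSF10B, the death receptor DR5, ranged from 112 to 127 CPM at 0 h and from 133 to 153 CPM at 24 h, and its log2 fold change of 0.24 (SE 0.09) did not pass (adjusted p = 0.141).

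PMAIP1, which encodes the BH3-only protein NOXA, read 59.2, 43.1 and 47.9 CPM at 0 h, 65.0, 43.0 and 55.0 CPM at 8 h and 41.0, 40.1 and 34.0 CPM at 24 h. Every 24 h library lay below every earlier one. The log2 fold change of PMAIP1 at 24 h against 0 h was -0.38 (SE 0.16, adjusted p = 0.163), and -0.37 (SE 0.11, adjusted p = 0.0367) with the block. AEN, a nuclease of apoptotic DNA, read 127, 83.1 and 83.6 CPM at 0 h, 118, 84.2 and 81.4 CPM at 8 h and 106, 63.0 and 54.7 CPM at 24 h. Replicate 1 was high throughout, so that the groups overlapped, while all 3 pairs were lower at 24 h. The log2 fold change of AEN was -0.39 (SE 0.25, adjusted p = 0.329), and -0.42 (SE 0.09, adjusted p = 0.00821) with the block.

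The other apoptosis genes did not pass in either fit. BBC3, which encodes the BH3-only protein PUMA, was scarce, at 1.24 to 2.78 CPM over the 9 libraries, and its log2 fold change of 0.26 at 24 h had an SE of 0.27. BAX, the pore-forming effector of mitochondria, ranged from 62.9 to 103 CPM. FAS, the CD95 death receptor, ranged from 17.1 to 20.7 CPM, with its 24 h libraries wholly below the others at a log2 fold change of -0.12 (SE 0.10). An opposite-strand gene, ACTA2, overlaps 8.93% of the exons of FAS. TP53I3, a quinone oxidoreductase, ranged from 16.6 to 27.4 CPM, and TRIAP1, a small mitochondrial protein that restrains apoptosis and has a pseudogene, from 23.5 to 37.8 CPM.

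The 4 DNA repair genes had a median log2 fold change of 0.05 at 24 h against 0 h, and none passed in that comparison. RRM2B, the p53-inducible small subunit of ribonucleotide reductase, read 87.3, 123 and 121 CPM at 0 h, 111, 121 and 123 CPM at 8 h and 164, 148 and 123 CPM at 24 h. Each pair was higher at 24 h, but the groups overlapped, and its log2 fold change of 0.39 (SE 0.14) had an adjusted p of 0.126, and of 0.0519 with the block. XPC, a sensor of damage in nucleotide excision repair, read 53.4, 62.5 and 63.5 CPM at 0 h, 53.9, 60.3 and 58.2 CPM at 8 h and 70.5, 67.1 and 69.5 CPM at 24 h. The 24 h libraries of XPC lay above the others, at a log2 fold change of 0.21 (SE 0.10, adjusted p = 0.194). Genes of the opposite strand, LSM3 among them, overlap 30.4% of its exons. DDB2, the partner sensor of ultraviolet damage and the member with the exact pair of half-sites, ranged from 172 to 247 CPM at 0 h and from 171 to 205 CPM at 24 h. POLH, the translesion polymerase eta, ranged from 51.7 to 71.6 CPM over the 9 libraries and has a pseudogene.

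Among the 5 genes of metabolism and redox balance the median log2 fold change was 0.36 at 24 h. SESN1, sestrin 1, which restrains mTORC1 and limits peroxides, read 6.55, 7.66 and 6.42 CPM at 0 h, 6.95, 7.44 and 7.06 CPM at 8 h and 11.6, 9.88 and 8.87 CPM at 24 h. Every 24 h library lay above every earlier one. SESN1 had a log2 fold change of 0.55 (SE 0.15), with an adjusted p of 0.0542 without and 0.0112 with the block. An opposite-strand gene overlaps 7.09% of its exons.

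CMBL, a cytosolic hydrolase, read 35.1, 41.9 and 35.3 CPM at 0 h, 31.8, 38.5 and 35.0 CPM at 8 h and 48.1, 49.7 and 49.5 CPM at 24 h. The 24 h libraries were close together and above all others, at a log2 fold change of 0.39 (SE 0.11, adjusted p = 0.0591, and 0.00746 with the block). TIGAR, a fructose bisphosphatase that diverts glucose to the pentose phosphate pathway, read 8.11, 6.85 and 5.89 CPM at 0 h, 6.67, 5.69 and 6.60 CPM at 8 h and 8.42, 9.66 and 8.62 CPM at 24 h. Its 24 h libraries lay above the others by a narrow margin, at a log2 fold change of 0.36 (SE 0.15, adjusted p = 0.171, and 0.0833 with the block), and a gene on the same strand overlaps 42.6% of its exons. ACER2, an alkaline ceramidase of the Golgi, read 1.46, 1.46 and 2.30 CPM at 0 h, 2.04, 2.06 and 2.34 CPM at 8 h and 2.96, 1.55 and 1.87 CPM at 24 h, and its groups overlapped. FDXR, ferredoxin reductase, ranged from 20.3 to 29.7 CPM.

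ZMAT3 (ENSG00000172667, chromosome 3, 179017223 to 179072279, minus strand) read 73.6, 86.4 and 85.3 CPM at 0 h. It read 94.5, 89.3 and 88.3 CPM at 8 h and 140, 117 and 116 CPM at 24 h. The groups followed each other in time without overlap. The log2 fold change of ZMAT3 at 24 h against 0 h was 0.60 (SE 0.11, adjusted p = 0.0202, and 0.00191 with the block), and without 24 h replicate 1 it was 0.51 and still passed. Without 24 h replicate 2 or 3 its call was lost. RPS27L, a relative of a ribosomal protein that stabilises p53, ranged from 78.6 to 107 CPM and did not pass.

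**Figure D3:**
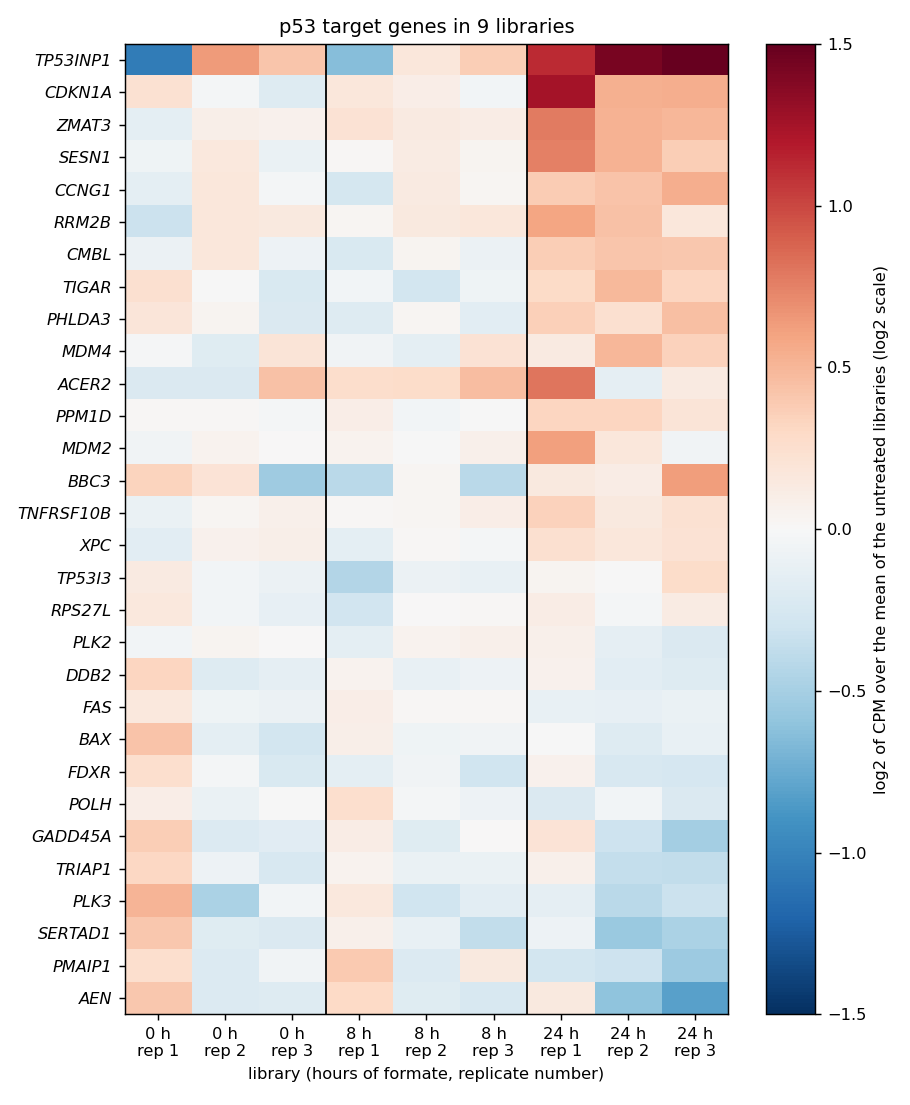
Level of each of the 30 p53 targets (rows, ordered by the 24 h log2 fold change) in each of the 9 libraries (columns, hours of formate and replicate number), as the log2 ratio of CPM to the mean of the untreated libraries; red is higher and blue lower, and the colour stops at 1.5 in either direction. TP53INP1 spans -1.05 to 1.80, and the lower rows (AEN, PMAIP1, SERTAD1) are higher in untreated replicate 1 than in the other untreated libraries.

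Replicate 1 stood apart over all genes as well as in this list. Over all tested genes, the chi-square per degree of freedom of untreated replicate 1 was 57.9 against replicate 2 and 60.8 against replicate 3. Between untreated replicates 2 and 3 it was 8.66. At 24 h replicate 1 was the highest library in 19 of 30 members (63.3%), against 38.6% of all tested genes. At 8 h it was the highest in 14 members (46.7%), against 38.7%. Among the untreated libraries replicate 1 was the highest in 17 members (56.7%), against 43.4%. The summed level of the 30 members was 2265, 2138 and 2073 CPM at 0 h, 2133, 2151 and 2160 CPM at 8 h and 2676, 2290 and 2250 CPM at 24 h. The 24 h sum of replicate 2 lay close to the untreated sum of replicate 1. The part of this replicate in the results was not tested beyond the fits without it given here.

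Per kilobase of exon, PLK2 was the most abundant member in untreated cells, at a mean of 73.6 RPKM, followed by CCNG1 (54.9 RPKM), DDB2 (40.7 RPKM), PHLDA3 (32.0 RPKM), CDKN1A (30.5 RPKM) and BAX (30.2 RPKM). At 24 h the order at the top was CCNG1 with 74.8 RPKM, PLK2 with 69.1 RPKM and CDKN1A with 53.4 RPKM. The lowest in untreated cells were TP53INP1 (0.814 RPKM), ACER2 (0.778 RPKM) and BBC3 (0.585 RPKM), and TP53INP1 stood at 2.01 RPKM at 24 h. These levels use the length of all annotated exons of a gene, so a gene with long rare exons reads too low.

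Between 8 h and 24 h, 4 members passed the test, all higher at 24 h, against 4.56% of all genes (2.84% higher and 1.72% lower). The log2 fold changes were 1.44 (SE 0.37, adjusted p = 0.0491) for TP53INP1, 0.74 (SE 0.18, adjusted p = 0.0458) for CDKN1A, 0.49 (SE 0.11, adjusted p = 0.0322) for CMBL and 0.45 (SE 0.10, adjusted p = 0.038) for ZMAT3. PHLDA3 and CCNG1 were just outside the threshold, with log2 fold changes of 0.46 (adjusted p = 0.0504) and 0.48 (adjusted p = 0.0506). With the replicate block 10 members were called higher and 2 lower, 40% of the list. Over all genes the block called 20.5% (1799 higher and 1331 lower). The median over the members was 0.21, against 0.02 over all genes, and 0.13 without 24 h replicate 1 and 0.08 without all libraries numbered 1. The 24 h libraries lay above all 8 h libraries in 13 members, against 18.2% of all genes, and below them in 2 (PMAIP1 and FAS), against 16.2%. This comparison shares the 24 h libraries with the one against 0 h and is not a second measurement of it. No member passed without 8 h replicate 1 or 3, or without 24 h replicate 2 or 3. Tested over the 3 groups at once, the members called were CDKN1A (adjusted p = 0.0427), CMBL (adjusted p = 0.0457) and ZMAT3 (adjusted p = 0.0271), against 3.64% of all genes. That count was 0 without any 1 of the 24 h libraries or without 8 h replicate 1 or 3, 1 without untreated replicate 3 or 8 h replicate 2, and 6 without untreated replicate 1. The share of all genes was not counted for this test with a library left out.

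Of 19 tested genes of the p53 family and its regulators, 1 (5.26%) was called at 24 h against 0 h, near the 4.25% of all genes. It was higher, and none was lower. That gene was TP73, which encodes the p53 relative p73, and its libraries read 17.7, 17.3 and 17.1 CPM at 0 h, 18.3, 17.9 and 17.0 CPM at 8 h and 32.1, 27.4 and 25.95 CPM at 24 h. The untreated and 8 h libraries of TP73 lay close together, and every 24 h library lay above them. Its log2 fold change was 0.71 (SE 0.11, adjusted p = 0.0167), and 9.36% of its exons are overlapped by the opposite-strand TP73-AS1. The median over the 19 genes was 0.01, and with the block 3 were called higher, among them TP73 and ATM, the kinase of DNA double-strand breaks, and none lower. These 3 made up 15.8% of the list, below the 24.1% of all genes called with the block.

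Of a further 40 p53 targets outside the list, 35 were tested, with a median log2 fold change of 0.23 at 24 h against 0 h. In that comparison 6 were called higher, against 2.47% of all genes, and 2 lower, against 1.77%. In either direction 22.9% of these targets were called, against 4.25% of all genes. With the block 9 were higher, against 12.6% of all genes, and 4 lower, against 11.6%. In either direction the block called 37.1% of these targets, against 24.1% of all genes. The 8 calls became 3 without 8 h replicate 3 and 5 without any 1 of the untreated libraries, and none were left without 24 h replicate 2 or 3. KITLG, the ligand of the receptor KIT, was higher at 24 h by 0.82 (SE 0.16, adjusted p = 0.0268) on the log2 scale, and CYFIP2, a subunit of the WAVE complex of actin regulation, by 0.78 (SE 0.16, adjusted p = 0.0282). Over this list 23 log2 fold changes were positive and 12 negative.

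Genes that p53 lowers indirectly, through p21 and the DREAM repressor complex, were looked at as well. Of 20 such genes, mostly of G2 and mitosis, 8 (40%) were called lower at 24 h against 0 h, against 1.77% of all genes. None was called higher, against 2.47%, and the median log2 fold change was -0.49. The smallest p-values belonged to CDC25C (-0.65, adjusted p = 0.0199), CCNB1 (-0.91, adjusted p = 0.0215) and CDC20 (-0.90, adjusted p = 0.0267). With the block 13 were lower, against 11.6% of all genes, and 1 was higher, against 12.6%.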

How the data were processed

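The authors deposited 1 table of raw counts per Ensembl gene for 9 libraries, whose whole numbers sum to 22222298 to 25848242 per library. Per the labels' protocols, a stranded mRNA kit was used on RNA of integrity above 9. The submitters' processing notes name bcl2fastq 2.20.0.422, STAR 2.7.4a and GRCh38. The counting program, annotation and strand setting are not given in the sources used here. The line is named as in the growth protocol; another label spells it otherwise. GENCODE release 29 (GRCh38), where 98.0% of the identifiers were found, gave coordinates and exon overlaps.

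The filterByExpr filter, TMM factors and the quasi-likelihood fit came from edgeR 4.0.16 (R 4.3.3). The model had a mean for each of the 3 groups and used all 9 libraries, and the scripts were tested on simulated data. Replicates differed by more than sampling noise (chi-square per degree of freedom 8.66 to 60.8). The titles number the replicates 1 to 3 in each group. Deviations of same-numbered libraries correlated across genes at 0.476, 0.432 and 0.414 between 0 h and 8 h, and at 0.367, 0.164 and 0.251 between 0 h and 24 h. Between 8 h and 24 h they correlated at 0.423, 0.0367 and 0.404, and differently numbered libraries at -0.44 to 0.134. Block values of single genes are given for the first 2 comparisons. These correlations do not set the pairing of 0 h with 24 h above that of 8 h with 24 h, so the block is given as a count there. Differently numbered libraries correlated at -0.364 to 0.0108 between 0 h and 8 h. Between 0 h and 24 h they correlated at -0.4 to 0.27, so the numbers pair those groups only in part. RPKM used the length of all annotated exons.

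Alternatives were the block, DESeq2 1.42.0, RLE and upper-quartile factors, 2 other filters, the 2 groups alone, limma-voom (limma 3.58.1) and leaving out each library. Leaving out all libraries numbered 1 was added after seeing the data. The members and gene lists were chosen with earlier results of these data known, so lists carry counts and medians and no test. Values in every library were given for CDKN1A, MDM2, every member passing in either fit in any comparison, and the 4 next largest 24 h differences; up to 3 genes with the smallest p were named from the other lists, where some items are not reported here, and markers were fixed for the line and other cell types. SPATA18 and the markers CD3E and RBFOX3 were not analysed here.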

Additional observations from a re-analysis of the deposited data

Results flagged for a closer look

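A difference between the effects at the 2 times was called for 4 members, by the test of 24 h against 8 h, which equals the 24 h effect minus the 8 h effect since both use the same untreated libraries. TP53INP1 differed by 1.44, CDKN1A by 0.74, CMBL by 0.49 and ZMAT3 by 0.45 on the log2 scale, each with edgeR's adjusted p under the threshold and each higher at 24 h. With RLE factors CMBL and ZMAT3 were the 2 members called. Groups of 3 libraries were not tested for outlying values.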

How the results depend on the processing

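Only 3 libraries per group and a large share of variation tied to the replicate number limit these results; the cause of the changes below was not tested. At 24 h against 0 h the 649 genes called became 3687 with the replicate block, 1656 with DESeq2, 124 when the 2 groups were fitted alone and 2616 without the libraries numbered 1, and 0 to 899 when 1 library was left out. The 2 members called became 11, 7, 0 and 8 under those settings, and 0 to 2 when 1 library was left out (6 to 12 with the replicate block as well). At 24 h against 8 h the 696 genes called became 3130, 1486, 1787 and 3072, and 0 to 2545 when 1 library was left out. The 4 members called became 12, 9, 9 and 12, and 2 with RLE factors, and 0 to 10 when 1 library was left out (4 to 17 with the replicate block). Same-numbered libraries at 8 h and 24 h did not all deviate together, so the block there rests on a shared number. The pairing of 0 h with 24 h was also uneven, as given above. The 3 members called by the test over 3 groups became 10 with the replicate block, 8 without the libraries numbered 1 and 0 to 6 when 1 library was left out. That test was not run with DESeq2, limma-voom or 2 groups. Calls over all genes were not counted for that test in these other fits, nor for the block with 1 library left out. Those member counts therefore have no background share and say nothing about the members apart from other genes. At 8 h no setting called a member. Of the 18 members given in every library, ACER2 alone changed sign in a 24 h difference, at -0.12 against 0 h without the libraries numbered 1 and at -0.03 to 0.54 (24 h against 0 h) and -0.33 to 0.15 (24 h against 8 h) when 1 library was left out. At 8 h, uncalled values of those 18 changed sign without the libraries numbered 1 in PLK3 (0.03), CCNG1 (0.01), PPM1D (-0.01) and PHLDA3 (0.02). When 1 library was left out, they ranged from -0.01 to 0.19 in CDKN1A, -0.35 to 0.16 in PLK3, -0.25 to 0.07 in SERTAD1, -0.12 to 0.08 in CCNG1, -0.09 to 0.13 in MDM4, -0.01 to 0.05 in PPM1D, -0.02 to 0.26 in PMAIP1, -0.50 to 0.16 in TP53INP1, -0.23 to 0.18 in AEN and -0.04 to 0.19 in RRM2B. Of the 12 other members, none of which passed with all 9 libraries, 6 changed sign at 8 h against 0 h under some setting, 2 at 24 h against 0 h (BAX, up to 0.09, and DDB2, up to 0.05) and 1 at 24 h against 8 h (FDXR, down to -0.09). The other alternatives that leave out no library kept the counts over all genes and over members within 1.5 times.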
